A study of Mus musculus with 3 samples.

Results

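The proneural basic helix-loop-helix (bHLH) genes Atoh1, Neurog1, Neurog2, Neurog3, Neurod1, Neurod2, Neurod4, Olig1 and Olig2 were examined in F123 mouse embryonic stem cells (mESCs), cells not yet committed to a lineage. The members were taken by gene symbol, 9 of the 21938 protein-coding genes of the annotation. F123 is a male F1 hybrid line of S129/Jae and Cast mice, kept in medium with LIF on embryonic fibroblast feeders and then for at least 2 passages without them. Chromatin immunoprecipitation sequencing (ChIP-seq) gave 3 lists of called regions, each from 1 library with no replicate. The lists do not separate the parental alleles. H3K27me3 is the histone mark of Polycomb repressive complexes. Pol2-S5p and Pol2-S7p are RNA polymerase II with a phosphate on serine 5 or serine 7 of its C-terminal repeats, the former carried near transcription starts and at many Polycomb-bound promoters, and the latter at productive genes. The depth of the libraries was not used here, so a gene without a region is one at which the authors' peak finder called none.

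Proneural bHLH proteins pair with E proteins, bind the E-box and turn on neuronal genes in progenitors, while Id proteins capture the E proteins and Hes and Hey repressors, switched on by Notch signalling, keep the proneural genes off. Before differentiation, developmental regulators of this kind are commonly held by Polycomb complexes at CpG-rich promoters, often together with paused polymerase. Atoh1 and the Neurog genes act early, in progenitors, the Neurod genes mostly in their differentiating progeny, and the Olig genes in motor neuron and oligodendrocyte lineages.

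A mark was counted at a gene when any of its regions overlapped the 2 kb around the transcription start site (TSS), here called the window. PRC-repressed (PRCr) promoters held H3K27me3 and Pol2-S5p without Pol2-S7p, PRC-active (PRCa) promoters held all 3 marks, Active promoters held both polymerase forms without H3K27me3, and Inactive promoters held none. H3K27me3 reached 8 of the 9 windows, beside 37.6% of all coding genes. Pol2-S5p reached 9 of 9, beside 69.9% of coding genes, and Pol2-S7p 3 of 9, beside 60.4%. Atoh1, Neurog1, Neurog2, Neurod2 and Olig2 were PRCr, a state of 7.69% of coding genes, and Neurog3, Neurod1 and Olig1 were PRCa, a state of 23.7%. Neurod4 held Pol2-S5p only, as did 2.44% of coding genes. None of the 9 was Active (36.1% of coding genes), Inactive (23.5%), marked by H3K27me3 only (6%), by Pol2-S7p only (0.41%) or by H3K27me3 with Pol2-S7p (0.169%). Among coding genes with both H3K27me3 and Pol2-S5p, 75.5% also held Pol2-S7p, against 3 of the 8 members with that pair. Pol2-S5p filled the whole window at 4 of 9, Atoh1, Neurog3, Neurod1 and Olig2, beside 58.2% of coding genes with Pol2-S5p. Its median cover of the window was 98.2% at the members, beside 100% for coding genes with Pol2-S5p. The members were chosen with earlier results of these data known, so these shares describe the 9 genes alone. With 1 library per mark there was no replicate check and no test of these differences. Because the lists merge many cells and both alleles, marks on the same promoter copy and marks on different copies cannot be told apart.

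**Figure D1:**
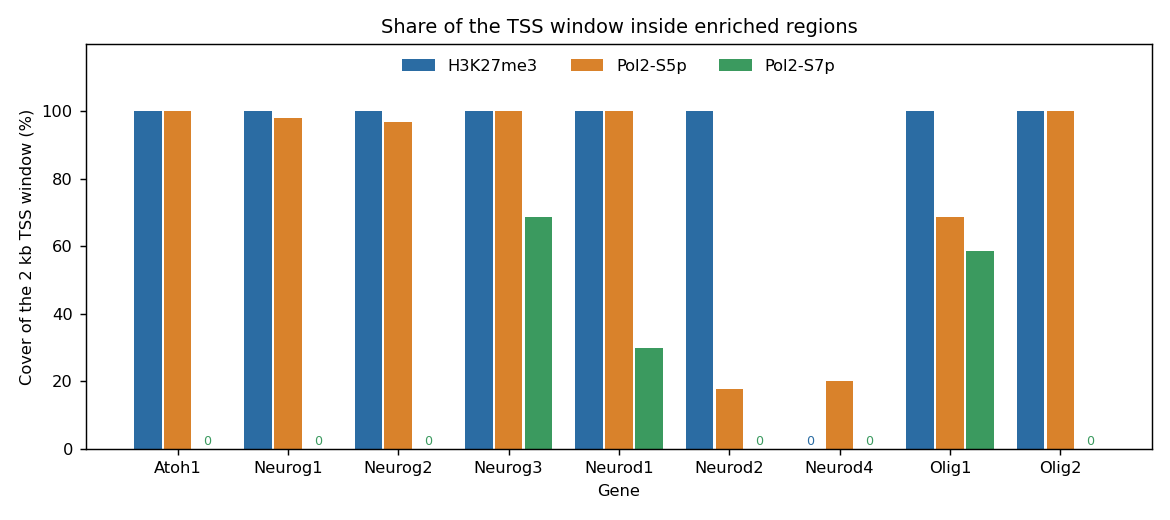
Bars give the share of the 2 kb TSS window (%) inside enriched regions of H3K27me3, Pol2-S5p and Pol2-S7p for each of the 9 genes, and a printed 0 means no region. H3K27me3 filled the window of every gene but Neurod4, whereas Pol2-S7p was seen at Neurog3, Neurod1 and Olig1 only.

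Promoter sequences of 8 members were found in RefSeq (build GRCm38.p6, 250 bases before to 50 after the RefSeq start, read 5′ to 3′ on the strand of the gene), and Olig1 was not matched. The following 4 show the range of CpG content and of states. Capitals mark CpG dinucleotides. Neurog1 (PRCr, chr13:56252131-56252430, minus strand) had the most, Neurod1 (PRCa, chr2:79456587-79456886, minus strand) lay wholly inside all 3 marks, as did Neurog3, Neurod2 (PRCr, chr11:98329596-98329895, minus strand) had no Pol2-S5p over the promoter itself, and Neurod4 (Pol2-S5p only, chr10:130280205-130280504, minus strand) had the fewest.
Neurog1: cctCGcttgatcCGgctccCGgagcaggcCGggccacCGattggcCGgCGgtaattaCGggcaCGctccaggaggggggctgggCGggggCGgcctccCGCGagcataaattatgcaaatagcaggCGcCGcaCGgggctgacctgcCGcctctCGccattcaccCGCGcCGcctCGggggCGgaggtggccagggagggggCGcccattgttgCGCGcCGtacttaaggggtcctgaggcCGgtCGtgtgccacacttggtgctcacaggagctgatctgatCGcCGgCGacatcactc
Neurod1: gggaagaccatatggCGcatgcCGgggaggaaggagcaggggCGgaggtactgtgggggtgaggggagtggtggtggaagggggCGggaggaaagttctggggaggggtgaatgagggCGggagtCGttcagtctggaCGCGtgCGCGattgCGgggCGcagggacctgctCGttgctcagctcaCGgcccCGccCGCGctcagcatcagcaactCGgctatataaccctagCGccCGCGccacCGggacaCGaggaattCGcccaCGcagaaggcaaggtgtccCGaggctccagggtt
Neurod2: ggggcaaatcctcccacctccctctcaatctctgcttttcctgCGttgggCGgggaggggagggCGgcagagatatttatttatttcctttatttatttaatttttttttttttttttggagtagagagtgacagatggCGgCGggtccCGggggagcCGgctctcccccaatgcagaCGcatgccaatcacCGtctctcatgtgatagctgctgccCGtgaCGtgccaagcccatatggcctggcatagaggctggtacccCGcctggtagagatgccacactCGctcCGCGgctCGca
Neurod4: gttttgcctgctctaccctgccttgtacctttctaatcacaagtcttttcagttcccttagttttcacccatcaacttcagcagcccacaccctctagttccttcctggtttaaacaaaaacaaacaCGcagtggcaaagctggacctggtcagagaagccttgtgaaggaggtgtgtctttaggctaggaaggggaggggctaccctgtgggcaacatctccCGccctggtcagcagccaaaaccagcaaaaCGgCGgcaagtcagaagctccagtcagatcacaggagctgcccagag
These stretches held 32 CpG dinucleotides at Neurog1, 26 at Neurod1, 16 at Neurod2 and 4 at Neurod4, beside a median of 7 over 32851 RefSeq promoters. Olig2 had 25, Atoh1 20, Neurog3 19 and Neurog2 10, so that every H3K27me3-marked promoter in the table was above the median of all promoters and the Neurod4 stretch below it. A second RefSeq start of Neurod4, 102 bases downstream of the TSS used here, had 7. The E-box CANNTG, which reads the same on both strands, was present in the promoters of Neurog1, Neurog3, Neurod1 and Neurod2 and around the second start of Neurod4, and in 72.3% of all RefSeq promoters, a share no lower than that of the members. The form CATATG, in 3.91% of all promoters, occurred at Neurod1 and Neurod2. A match is a description of the letters and not a bound site.

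Atoh1, which specifies cerebellar granule cells, inner ear hair cells and secretory cells of the gut, is a single-exon gene at chr6:64729125-64731245 (mm10, plus strand, 2121 bp). Its H3K27me3 region ran from −4.33 kb (upstream of the TSS) to 12.7 kb (downstream), a width of 17000 bp with a score of 14.8, at the 85.5th percentile of scores in that list. The score is the value given by the peak finder, whose unit is not stated, and it is used here only to rank regions within a list. Pol2-S5p ran from −1.73 to 1.47 kb, with a score of 10.5 at the 48.5th percentile, and ended in the 3′ untranslated region (UTR). A further Pol2-S5p region of 1000 bp lay from 5.08 to 6.07 kb downstream, inside the H3K27me3 region and over no annotated start. Atoh1 is known for an autoregulatory enhancer downstream of the gene, and whether this region meets it was not tested. The nearest Pol2-S7p region was 266 kb away, so Pol2-S5p was the only polymerase form called in this Polycomb domain. The domain was wider than most H3K27me3 regions, at the 81.9th percentile of widths. No other coding TSS lay in the domain.

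Neurog1, which directs cranial and dorsal root sensory neurons, is a single-exon gene at chr13:56250478-56252163 (minus strand, 1686 bp). It lay in an H3K27me3 region of 337400 bp, wider than 99.9% of that list, which filled all 100 kb around the TSS but had a score of 8.47, at the 52.4th percentile. The same region held the starts of 4 other coding genes, among them the chemokine gene Cxcl14 and Tifab, the nearest coding genes on either side and both PRCr. Pol2-S5p formed a region of 10000 bp that lay mostly upstream, from −9.04 kb to 0.963 kb, where it ended in the 3′ UTR. Its score of 9.15 was at the 40.3rd percentile. A broad Pol2-S5p region of 80400 bp lay farther downstream, from 29.4 to 110 kb, with a score of 3.84 at the 4.5th percentile. The nearest Pol2-S7p region was 116 kb away.

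Neurog2, a driver of excitatory neurons in the cortex, has 2 exons at chr3:127633135-127635631 (plus strand, 2497 bp), with its coding sequence in exon 2. H3K27me3 ran from −11.5 to 14.9 kb with a score of 15.9. Pol2-S5p formed a region of 2400 bp from −0.935 to 1.46 kb with a score of 19.3, at the 75.1st percentile, and a lower Pol2-S5p region (score 4.13) lay from 5.07 to 8.86 kb over no annotated start. Pol2-S7p was found at neither, but a Pol2-S7p region of 3200 bp lay from −14.9 to −11.7 kb. It began beyond the annotated end of the upstream gene Zgrf1, at −15.1 kb, whose promoter was Active, and 6.25% of it lay inside H3K27me3, in a separate region of 200 bp from −12.1 to −11.9 kb. The Polycomb domain of Neurog2 thus began close to where the last polymerase region of the upstream side ended.

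Neurog3, which starts the endocrine programme of the pancreas, lies at chr10:62133090-62134763 (plus strand, 1674 bp). Its chosen TSS, 62133175, begins a transcript with a retained intron, 85 bp inside the gene. It lay in an H3K27me3 region of 283200 bp that reached from −48.2 to 235 kb and scored 5.98, the lowest score of the 8, at the 24.6th percentile. Pol2-S5p covered −5.58 to 5.42 kb and Pol2-S7p −0.375 to 8.02 kb, past the end of the gene, with a Pol2-S7p score of 5.92 at the 9.6th percentile. Neurog3 shares this stretch with Fam241b, on the opposite strand, whose body overlaps it and which has an annotated start 1.53 kb downstream. Another annotated start of Fam241b, at 6.7 kb, lay inside the same Pol2-S7p region and its window held no Pol2-S5p, and others lay at 10.7 kb, where the windows held neither polymerase form. Further starts of Fam241b lay near −22.2 kb, where a Pol2-S5p region (−27 to −21.8 kb) and a Pol2-S7p region (−26.8 to −21.8 kb) were also called. The share of each gene in the signal over Neurog3 cannot be told apart. The gene was Inactive when regions at or below the median score of each list were left out.

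Neurod1, needed for neurons of the inner ear and hippocampus and an activator of the insulin gene, has 2 exons at chr2:79452521-79456751 (minus strand, 4231 bp). It had the narrowest H3K27me3 region of the 8, 6400 bp from −4.05 to 2.35 kb, with a score of 15.7, and this was the sole H3K27me3 region touching a member's window that was not wider than 10 kb. The region ended inside the coding sequence and covered 59.6% of it. Pol2-S5p ran from −3.85 to 2.95 kb. Pol2-S7p was split into a 600 bp region at the TSS, from −0.248 to 0.351 kb, and an 1800 bp region over the coding exon, from 1.35 to 3.15 kb, with scores of 16.7 and 16. An annotated noncoding transcript of Cerkl, a gene linked to retinal degeneration, starts 34 bp upstream on the same strand and overlaps the gene, and the noncoding RNA gene Gm26755 starts 2.77 kb downstream on the opposite strand, under the second Pol2-S7p region. The protein-coding starts of Cerkl lay 27.9 and 118 kb downstream and held none of the 3 marks. Polymerase on Neurod1 and on these overlapping transcripts cannot be told apart.

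Neurod2, which acts in maturing cortical neurons, has 2 exons at chr11:98325415-98329648 (minus strand, 4234 bp). H3K27me3 ran from −26.2 to 46.4 kb, 72600 bp with a score of 16, and also covered the PRCr promoter of Ppp1r1b, the DARPP-32 gene of striatal neurons, whose start lay at −18.8 kb. Its Pol2-S5p differed in place from that of the other members: the region, 2000 bp with a score of 24.2, began 0.649 kb downstream of the TSS, in the intron, ran to 2.65 kb in the 3′ UTR and left the TSS itself uncovered. It covered 17.6% of the window, and with a 1 kb window Neurod2 held H3K27me3 only. Further Pol2-S5p regions lay inside the domain, for example 600 bp at −9.35 to −8.75 kb with a score of 24.9. Pol2-S7p regions lay at its borders, 800 bp at −29.2 to −28.4 kb over a start of Stard3, and 13200 bp from 44.8 kb on towards Cdk12, with 400 bp at 34.6 to 35 kb inside the domain.

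Neurod4, a differentiation factor of retina and other neural tissue, has 2 exons at chr10:130268152-130280240 (minus strand, 12089 bp), the longest gene of the 9. It was marked by a single 400 bp Pol2-S5p region from −0.159 to 0.24 kb, narrower than most of that list (4.33rd percentile of widths) and with a score of 8.84, at the 38.4th percentile. No other region of any list lay within 50 kb of its TSS. The nearest H3K27me3 region was 132 kb away and the nearest Pol2-S7p region 79.6 kb away. Its neighbours were the lymphocyte gene Tespa1 and the olfactory receptor gene Olfr827, both Inactive. Neurod4 thus sat in a stretch almost without called regions, although the small region lay directly on its TSS.

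**Figure D2:**
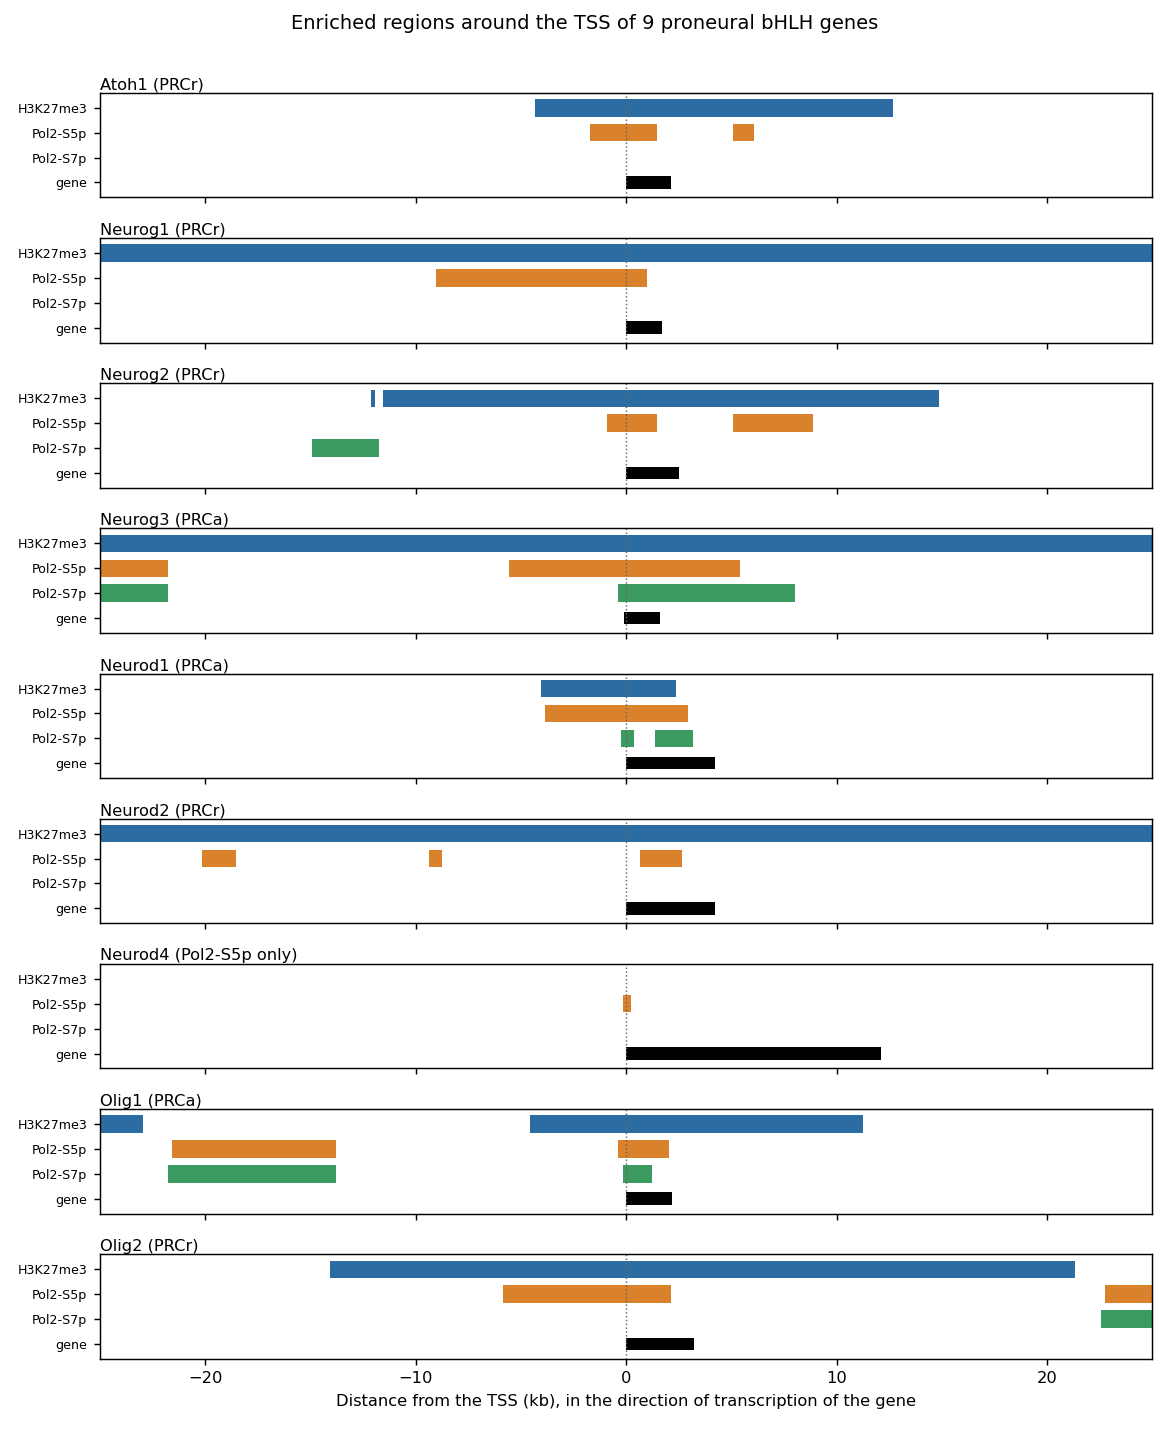
Horizontal bars show the regions of each list within 25 kb of the TSS of each gene, with distance in kb along the direction of transcription, the gene body in black and the TSS as a dotted line. H3K27me3 runs past both ends of most genes, Pol2-S5p sits mostly over the gene and upstream of it, and Neurod4 has a single 400 bp Pol2-S5p region.

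Olig2, which specifies motor neurons and oligodendrocytes, and Olig1, which acts in oligodendrocyte maturation, lie on the same strand with their starts 44.3 kb apart, and they differed in state. Olig2 (chr16:91225457-91228677, plus strand, 2 exons) was PRCr, with H3K27me3 from −14.1 to 21.3 kb (35400 bp, score 16.9) and Pol2-S5p from −5.86 to 2.14 kb. Olig1 (chr16:91269772-91271933, plus strand, 1 exon) was PRCa, with H3K27me3 from −4.57 to 11.2 kb (15800 bp, score 15.7), Pol2-S5p from −0.372 to 2.03 kb and Pol2-S7p from −0.172 to 1.23 kb. The difference in state rests on this Pol2-S7p region, whose score of 10.1 was at the 36th percentile. When regions at or below the median score of each list were left out, Olig1 and Olig2 were both PRCr. The genes thus had separate Polycomb domains, which covered 58.5% of the stretch between their starts. The gap between the domains, from 21.3 to 39.7 kb downstream of the Olig2 TSS, held a Pol2-S5p region of 7800 bp (22.7 to 30.5 kb) and a Pol2-S7p region of 8000 bp (22.5 to 30.5 kb), both wholly outside H3K27me3 and over no annotated start. Upstream of Olig2, Pol2-S5p from −37.7 to −27.9 kb and Pol2-S7p from −37.7 to −25.1 kb also lay outside H3K27me3 and over no annotated start. The Polycomb domain of Olig2 was therefore flanked on both sides by stretches with both polymerase forms, while its own promoter lacked Pol2-S7p. Since the genes are neighbours, their counts over 100 kb share regions and the pair is not independent.

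Across the 8 members with H3K27me3, the mark filled the whole window in 8, beside 69.4% of coding genes with the mark, and the region was wider than 10 kb in 7, beside 58.3%. Its score was above the median of the list in 7, beside 64% of coding genes with the mark. In the regions at Atoh1, Neurog2, Neurod1, Neurod2, Olig1 and Olig2 the scores lay between 14.8 and 16.9, whereas the far wider regions at Neurog1 and Neurog3 scored 8.47 and 5.98. No other coding gene started in the domains of Atoh1, Neurog2, Olig1 and Olig2. When H3K27me3 regions over 10 kb were left out, 1 member, Neurod1, kept the mark and 15.7% of coding genes did, with 0 members PRCr and 1 PRCa, so the H3K27me3 calls at the other 7 rest on wide regions. H3K27me3 covered a median of 45.7 kb of the 100 kb around the members, beside 6 kb for all coding genes. For Pol2-S5p these medians were 17.8 and 20.4 kb, and for Pol2-S7p 3.2 and 16.6 kb. Single members departed from these medians. H3K27me3 covered 0 kb around Neurod4 and 6.4 kb around Neurod1, and Pol2-S7p covered 23 kb around Olig2 and 18.6 kb around Neurog3, above the median of coding genes.

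Pol2-S5p lay wholly inside H3K27me3 at 7 of the 8, beside 49.9% of coding genes with both, and Neurod1, with 91.2% inside, was the exception. These 8 are short genes, and they were compared with the 1224 coding genes of at most 5 kb that held both marks. Pol2-S5p covered the entire coding sequence at 8 of 8, beside 83.6% of those genes, and H3K27me3 at 7 of 8, beside 84.6%, which is close to the background for both. Pol2-S7p covered the entire coding sequence at Neurog3, Neurod1 and Olig1, 3 of 8 beside 58.8%. The downstream edge of Pol2-S5p fell inside the gene at 7 of 8, in each case in the 3′ UTR and between 0.963 and 2.95 kb from the TSS, beside 29.6% of short genes with an edge inside the gene. Neurog3, whose Pol2-S5p ran on to the Fam241b side, was the exception. On the upstream side, Pol2-S5p reached −9.04 kb at Neurog1, −5.86 kb at Olig2, −5.58 kb at Neurog3 and −3.85 kb at Neurod1, and stayed within 2 kb of the TSS at Atoh1, Neurog2 and Olig1. Edges are given on the 200 bp grid of the deposited regions.

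Overlapping coding genes were found beside PRCa members. Another coding gene started less than 2 kb from Neurog3 and Neurod1, 2 of the 3 PRCa members, beside 12.3% of all PRCa genes, and from 0 of the 5 PRCr members, beside 3.74% of all PRCr genes. The start used for each gene was the one with most Pol2-S5p, so these counts are partly set by that choice. Among the annotated starts of Cerkl, the one used is noncoding, and that of Fam241b is one of several. Olig1 was the PRCa member with no such neighbour. In the 7 members whose window overlapped that of no other coding gene, H3K27me3 was found at 6, Pol2-S5p at 7 and Pol2-S7p at 1, beside 38.2%, 67.1% and 56.8% of coding genes with such windows. Setting Neurog3 and Neurod1 aside removes 2 of the 3 members with Pol2-S7p, so the count of 1 follows from that choice. Pol2-S7p covered 68.8% of the window at Neurog3, 58.6% at Olig1 and 30% at Neurod1. At an alternative threshold of 50% cover Neurod1 was therefore PRCr, and Neurod2 and Neurod4, with Pol2-S5p over 17.6% and 20% of the window, lost Pol2-S5p. The part of overlapping transcripts in the Pol2-S7p calls was not tested.

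The TSS windows were rich in CpG. The ratio of observed to expected CpG over the 2 kb was 0.855 at Neurog2, 0.725 at Olig1, 0.696 at Atoh1, 0.682 at Neurog1 and 0.641 at Olig2, all in the highest of 4 equal groups of coding genes ranked by this ratio. It was 0.516 at Neurod1, 0.51 at Neurog3 and 0.466 at Neurod2, in the group below, and 0.187 at Neurod4, in the lowest. The median of the 9 was 0.641, beside 0.393 for all coding genes, 0.482 for PRCr and 0.598 for PRCa genes. The 5 members in the highest group all held H3K27me3 and 1 of them Pol2-S7p, beside 47.2% and 93.1% of coding genes in that group. The 3 in the group below all held H3K27me3 and 2 of them Pol2-S7p, beside 51.3% and 78.5%. In the lowest group H3K27me3 was found at 13.8% and Pol2-S5p at 24.2%.

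**Figure D3:**
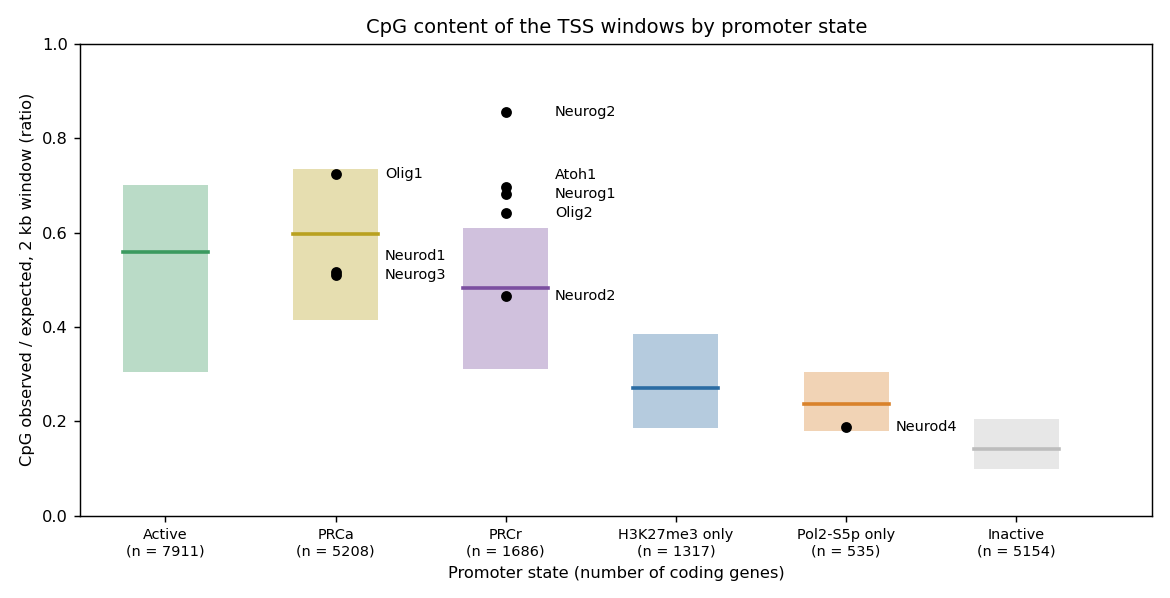
Points give the ratio of observed to expected CpG in the 2 kb TSS window of each of the 9 genes, placed by promoter state, over boxes from the lower to the upper quartile of all coding genes in that state with the median as a line. Neurog2, Atoh1, Neurog1 and Olig2 lie above the upper quartile of PRCr genes, and Neurod4, at 0.187, lies just above the lower quartile of genes with Pol2-S5p only.

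The wider family was set beside the members. Of 18 other bHLH genes, listed as proneural or neural, 15 held H3K27me3, 13 Pol2-S5p and 7 Pol2-S7p. Among all coding genes the shares were 37.6%, 69.9% and 60.4%, so Pol2-S5p, at 72.2% of the 18, was close to the background. PRCa genes included Atoh7, which specifies retinal ganglion cells, with Pol2-S7p over 30% of the window. PRCr genes included Atoh8, Bhlhe23 and the blood regulator Tal1. Neurod6, which acts in maturing cortical neurons, and Nhlh2 and Ascl3 were Inactive. Counting these with the 9 members, 21 genes of the combined list, Tal1 among them, had a CpG ratio at or above the median of coding genes. H3K27me3 was found at all 21, beside 49.3% of all coding genes there. Of the 6 below that median it was found at 2, Nhlh1 and Bhlha15, beside 25.9%. The 4 without it were Neurod4, Neurod6, Nhlh2 and Ascl3. This split, and Bhlha15, were chosen after the values were seen.

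Among the muscle bHLH genes, Myod1 was PRCr, Myog PRCa and the linked Myf5 and Myf6 held H3K27me3 only, so that 4 of 4 held H3K27me3 and 2 of 4 Pol2-S5p. The E protein partners were in states with Pol2-S7p, Tcf4 Active and Tcf3 and Tcf12 PRCa, as were the Id inhibitors, with Id1 Active and Id2, Id3 and Id4 PRCa. The Hes and Hey repressors held H3K27me3 at 9 of 9 and Pol2-S7p at 6 of 9. Hes1, Hes5, Hes6 and Hey1 were among the PRCa genes, and Hes2, Hes7 and Heyl were PRCr. Of 11 Notch pathway genes, 10 held Pol2-S7p and 7 held H3K27me3. Notch1, Notch3, Rbpj and Maml1 were Active. The 6 PRCa genes included receptor genes as well as the ligand genes Dll1, Jag1 and Jag2, and Dll4 was PRCr. Among all coding genes, 37.6% held H3K27me3, 69.9% Pol2-S5p and 60.4% Pol2-S7p. Differences between the lists were not tested.

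Of 24 target and downstream genes, 10 were PRCr, 10 PRCa, 1 held H3K27me3 only and 3 were Inactive. These states hold 7.69%, 23.7%, 6% and 23.5% of all coding genes. Insm1, a zinc finger factor of neuroendocrine progenitors, Gadd45g and Lhx2 were PRCa, Barhl2, Ebf2, Ebf3 and Sox10 PRCr, and Myt1, St18 and Neurod6 Inactive. None was Active. Of 10 neuron markers, 3 were Active (Syp, Stmn2 and Elavl4), 3 PRCa (Tubb3, Nefl and Map2), 2 PRCr (Elavl3 and Rbfox3), 1 held H3K27me3 only (Snap25) and 1 was Inactive (Dcx). Pol2-S7p was held by 60% of these markers, close to the 60.4% of all coding genes.

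**Figure D4:**
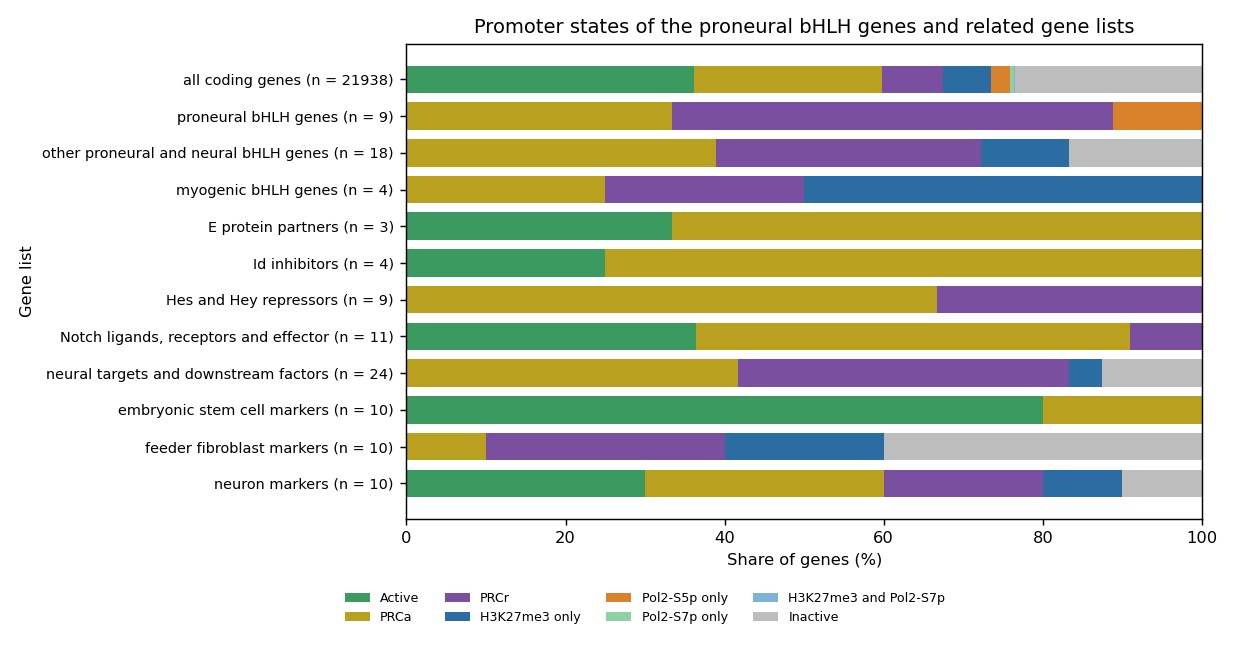
Each bar divides a gene list (number of genes in brackets) into promoter states as a share of its genes (%), with all coding genes at the top. The proneural bHLH genes have the largest PRCr share of the lists shown, 5 of 9 beside 10 of 24 target and downstream genes. No Active promoter is seen among them, nor in the other neural bHLH, muscle bHLH, Hes and Hey, target and fibroblast lists. Embryonic stem cell markers are mostly Active.

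The labelled cell type was checked against its markers. Of 10 embryonic stem cell markers, 10 held both polymerase forms, with 8 Active, among them Nanog and Esrrb, and Sox2 and Klf4 PRCa. Among all coding genes, 36.1% were Active and 60.4% held Pol2-S7p. Of 10 fibroblast markers, which would mark remaining feeder cells, 0 were Active and 1, Pdgfra, held Pol2-S7p. Their part in the results was not tested.

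The pattern of marks within 10 kb of the TSS was compared as a Jaccard index, the number of 200 bp bins marked in both genes over the number marked in either, across 300 bins of the 3 marks. Among the 36 pairs of members the index ran from 0 to 0.859 with a median of 0.514. Neurog1 and Olig2 were most alike (0.859), both with H3K27me3 across all bins of the stretch and Pol2-S5p that reached far upstream, followed by Atoh1 and Olig1 (0.779). The neighbours Olig1 and Olig2 had 0.578. Neurod1 reached at most 0.397 with any member, and Neurod4 at most 0.0256. Other coding genes came closer to each member than any member did, such as Kcnc1 and Ptf1a for Atoh1 (0.892 and 0.862), Pdk2 for Neurog1 (0.98), Hoxd4 and Hoxa13 for Neurog2 (0.914 and 0.886), and Fbxl14 and Foxc1 for Neurog3 (0.883 and 0.881). The closest were Adm for Neurod1 (0.812), Ly6h for Neurod2 (0.965), Ror1 for Olig1 (0.935) and Spata3 and Prdm12 for Olig2 (0.979 and 0.972). Cabcoco1 had the same pattern as Neurod4 (index 1), which rests on a single narrow Pol2-S5p region. Far more non-members than members were compared, so a closer non-member was likely in advance. Of 21938 coding genes, those tied with or above the best member numbered 28 for Olig2, 38 for Atoh1, 48 for Neurog1 and 67 for Olig1. They numbered 413 for Neurog3, 675 for Neurog2, 719 for Neurod2, 820 for Neurod1 and 4501 for Neurod4. A wide H3K27me3 region fills most bins by itself, so high values between genes in wide domains carry little detail.

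**Figure D5:**
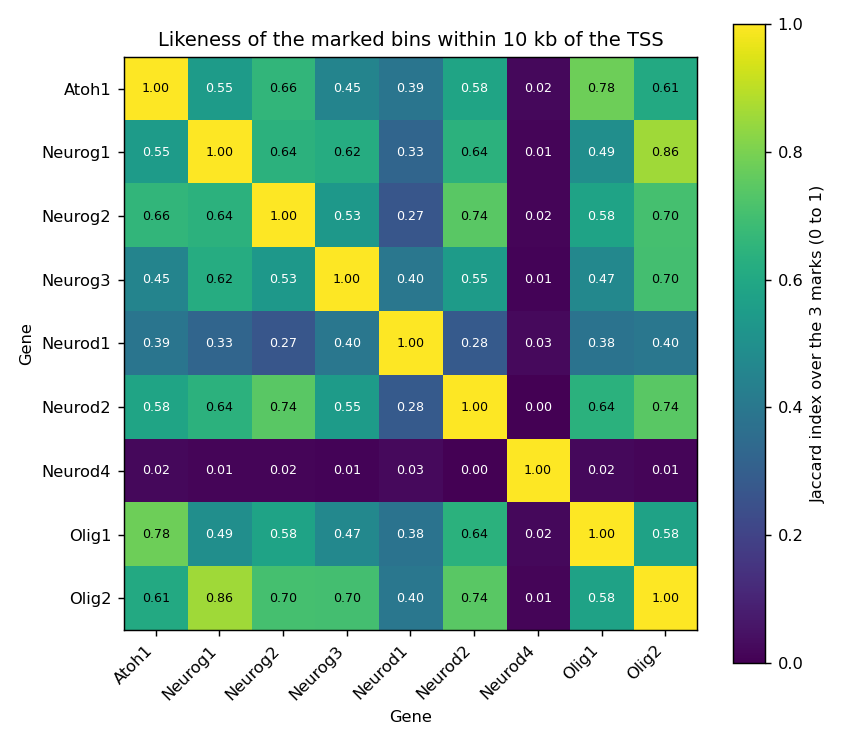
Each cell gives the Jaccard index (0 to 1) between the marked 200 bp bins of a pair of the 9 genes, over 10 kb on both sides of the TSS and all 3 marks. Neurog1 and Olig2 form the most alike pair at 0.859, and the Neurod4 row stays at or below 0.0256.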

How the data were processed

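The authors aligned single-end reads of 75 bp to mm10 with strain variant positions masked, and the submitters' processing notes name Bowtie2 2.3.4.3. They called regions in each of the 3 libraries with a Bayesian change-point caller (BCP) in HM (histone) mode at default settings. The deposited files hold for each region a position, a score, whose unit is not given in the sources used here, and a width in bp. The lists hold 17342 H3K27me3, 29222 Pol2-S5p and 22320 Pol2-S7p regions. No read counts were used, so depth is unknown here.

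Positions were matched in Python 3.11.15 with NumPy 2.4.6 and SciPy 1.17.1 to GENCODE M21 on GRCm38 (mm10), over 21938 coding genes, counting coordinates from 1. Of several starts, the one with the longest Pol2-S5p cover of the 2 kb window was used, then Pol2-S7p cover, then the longest transcript. Regions counted from 1 bp of overlap. The study's read threshold was not applied. Its promoter classification also left out overlapping genes and genes with TSSs close together, which were kept here. Neurog3 and Neurod1 are overlapped by other coding genes. Functions were tested on simulated data. Named genes are the 9 members, their nearest coding genes, the 3 most alike non-members of each, and up to 4 genes per state of each list. A gene that this rule gives is not reported here. Members and lists were chosen with earlier results of these data known.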

Additional observations from a re-analysis of the deposited data

How the results depend on the processing

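Window size, cover, score, region width and choice of TSS were varied, and 31 of 40 alternative counts lay within 1.5 times the count reported. The 40 include counts that could not change, such as those of Pol2-S5p and Pol2-S7p when only H3K27me3 regions were left out. Without H3K27me3 regions over 10 kb, 1 member held H3K27me3, 0 were PRCr and 1 was PRCa, beside 15.7%, 3.02% and 10.3% of all coding genes. Without regions over 10 kb in all 3 lists, an alternative added after the data were seen, the counts were again 1, 0 and 1, beside 16.8%, 3.74% and 6.69%. When regions scoring at or below the list median were dropped, 7 members held H3K27me3, 5 Pol2-S5p and 1 Pol2-S7p, and 1 was PRCa, beside 24.7%, 44.7%, 36.4% and 8.58% of all coding genes. Atoh1 and Neurog1 then held H3K27me3 only, Neurog3 and Neurod4 were Inactive, and Olig1 was PRCr. Each of these alternatives removes regions by construction. Neurod1 kept its state in 7 of 8 alternatives, Neurog2, Neurod4 and Olig2 in 6, Atoh1, Neurog1 and Olig1 in 5, and Neurog3 and Neurod2 in 4. No paired analysis was possible because each mark had 1 library. The lists carry no depth, so a missing region does not show that the mark is absent.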
